A study of Mus musculus with 6 samples.

Results

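Transcripts of 9 transcription factors of the epithelial-mesenchymal transition (EMT) were followed in primary cultured mouse renal tubule epithelial cells (RTECs). The genes were chosen by symbol and were Snai1, Snai2, Zeb1, Zeb2, Twist1, Twist2, Prrx1, Ovol1 and Grhl2. They are 9 of the 46517 genes counted in the study, and all 9 passed the filter on low counts. RNA sequencing counts were available for 3 control (CTL) cultures and 3 TGF-β1–treated cultures. All 6 cultures came from kidneys of wild type FvB mice, aged 4 to 6 weeks according to the labels, and the methods of the study give a slightly younger range. All were grown in RPMI 1640 with fetal bovine serum, EGF and ITS, an insulin-transferrin-selenium supplement, and the medium was changed to serum-free RPMI for 24 h. The treated cultures then received 50 ng/ml TGF-β1 for 24 h, and no agent is named for the CTL cultures. The labels do not say whether the 3 cultures of a group came from separate animals, so the p-values measure the spread between these cultures.

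EMT is a program in which epithelial cells give up apical-basal polarity and cell-cell junctions and take on migratory and matrix-producing traits. Snail, Zeb and Twist proteins recognize E-box sequences, and the Snail and Zeb families are best known as repressors of the E-cadherin gene Cdh1 and other junction genes. Ovol and Grainyhead-like proteins hold cells in the epithelial state, and TGF-β acting through Smad proteins is a classical inducer of the program. In the kidney, a partial form of EMT in tubule cells has been linked to fibrosis.

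Depth on genes ranged from 28313080 to 34183497 reads per library. The labelled cell type was checked against 18 tubule markers, of which 13 passed the filter. Transcripts of Cdh16, Pax8, Pax2, Krt8 and Krt18 were present in every culture. Slc34a1, Slc12a3, Aqp2, Aqp3 and Calb1, which mark particular segments of the nephron in the kidney, were under 1 CPM (counts scaled to the library total) in every culture. Of 15 fibroblast and pericyte markers, 11 passed the filter, and 5 were under 1 CPM in every culture, among them Lum, Dpt, Tcf21 and Ren1. Others were present in every culture, among them Pdgfrb at 45.8 to 227.3 CPM, Cspg4 at 31.75 to 137 CPM and Dcn at 1.04 to 12.3 CPM. The summed level of this list was 1551 to 2971 CPM in CTL and 1871 to 3904 CPM in TGF-β1–treated RTECs, most of it from collagens and Postn, and its part in the results below was not tested.

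The cultures that carry replicate number 2 stood apart from the others in both groups. Transcripts of Y-linked genes summed to 154 CPM in CTL and 136 CPM in TGF-β1 replicate 2, and to at most 0.177 CPM in each of the other 4 cultures, although the methods of the study describe male mice. These Y-linked sums used the library total without TMM scaling. Transcripts of 26 epithelial genes were also summed, among them junction, surface and keratin genes. Their sum was 2001 CPM in CTL replicate 2, against 4273 and 6255 CPM in CTL replicates 1 and 3. The summed fibroblast and pericyte markers went the other way, with 2971 CPM against 1767 and 1551 CPM. Not every marker followed these sums. Col1a1 was at 1465 CPM in CTL replicate 2 against 543.9 and 506.4 CPM, but Postn was at 330.9 against 678.9 and 455.8 CPM. Summed tubule markers were 1343 CPM against 2276 and 2922 CPM, but Pax8 was at 215 against 211.7 and 192.3 CPM. Same-numbered cultures deviated together in the Y-linked, epithelial and fibroblast sums. The replicate number was therefore also used as a block, which compares each TGF-β1–treated culture with the CTL culture of the same number. This pairing is assumed, as neither the labels nor the methods of the study state it. Results are given without the block first, and the value with the block follows where it changed the call.

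Snai1 was the 1 member whose transcript rose in the comparison of the groups without the block, by close to 1 log2 unit. No member fell past the threshold in that comparison by edgeR. Of the 6 members with a lower mean, only Twist1 had an unadjusted p under 0.05 there, and DESeq2 called it. All 9 members nevertheless moved one way in all 3 same-numbered pairs, with Snai1, Zeb1 and Zeb2 higher and the other 6 lower in the TGF-β1–treated culture. Among all 15862 genes tested, 63.0% moved one way in all 3 pairs, 30.4% of them higher and 32.6% lower as shares of all genes. With the replicate block, Snai1 and Zeb1 rose, and Snai2, Twist1, Prrx1 and Grhl2 fell.

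Snai1 encodes the zinc-finger repressor Snail, an early responder to TGF-β in many epithelia. In GRCm38 the gene spans chromosome 2 from 167538195 to 167542814 on the plus strand (ENSMUSG00000042821.7). The stretch just upstream of its start is printed with that of Twist1, the member with the largest decrease among those whose groups did not overlap, and that of Crb3, a gene of the apical polarity complex that EMT factors are known to repress. Each is the 250 bases before a RefSeq start in GRCm38.p6, 5′ to 3′ on the strand of the gene. Capitals mark the Snail and Zeb type E-box CACCTG or its reverse complement CAGGTG.
Snai1, chr2:167537945-167538194 (+): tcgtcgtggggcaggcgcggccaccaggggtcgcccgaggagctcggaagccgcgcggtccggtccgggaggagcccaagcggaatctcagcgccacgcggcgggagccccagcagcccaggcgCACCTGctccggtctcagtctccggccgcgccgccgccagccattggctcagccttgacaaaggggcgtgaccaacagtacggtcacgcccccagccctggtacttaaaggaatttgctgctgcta
Twist1, chr12:33957421-33957670 (+): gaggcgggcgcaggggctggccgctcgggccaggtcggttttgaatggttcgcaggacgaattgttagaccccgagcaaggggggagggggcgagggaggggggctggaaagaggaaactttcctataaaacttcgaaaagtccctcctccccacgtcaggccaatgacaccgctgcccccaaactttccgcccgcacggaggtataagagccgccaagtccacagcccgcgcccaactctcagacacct
Crb3, chr17:57061951-57062200 (+): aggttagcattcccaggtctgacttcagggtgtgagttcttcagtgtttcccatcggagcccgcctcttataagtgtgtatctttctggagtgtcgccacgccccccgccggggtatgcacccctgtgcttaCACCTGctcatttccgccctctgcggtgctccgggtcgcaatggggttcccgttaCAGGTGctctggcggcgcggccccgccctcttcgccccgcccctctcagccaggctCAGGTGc
The Snai1 window held 1 such E-box, which began 126 bases before the start, and the Crb3 window held 3, at 118, 63 and 7 bases before the start. A window at a second RefSeq start of Crb3 overlapped this one and also held 3. Other junction and epithelial genes held fewer, with 2 for Epcam and 1 for Cldn4. The first and second windows of Ocln held 0 and 2, as did those of Cldn7. No match was found in the windows of Zeb2, Twist1, Twist2 and Prrx1, the other members with an entry in the promoter table. Of 32851 promoter windows of the same length, 17.2% held the E-box. These matches describe the letters only.

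Normalized Snai1 counts were 28.01, 37.5 and 39.25 in CTL replicates 1, 2 and 3, and 64.0, 82.9 and 60.1 in TGF-β1 replicates 1, 2 and 3. Normalized counts are reads after TMM scaling of the libraries to a common size. Every TGF-β1–treated culture lay above every CTL culture. The mean went from 34.9 ± 6.05 to 69.0 ± 12.2 (SD, n = 3), which is 1.97-fold, or 0.98 as log2 fold change (standard error, SE, 0.22, with an adjusted p = 0.0379 by the quasi-likelihood test of edgeR). Without the block, 11.7% of all genes tested passed this threshold of 0.05, 5.0% higher and 6.69% lower. The groups of 17.2% of all genes did not overlap with TGF-β1 higher, and in either direction 35.1% did not overlap, against 3 of the 9 members (Snai1, Twist1 and Ovol1). In bulk RNA, more RNA per cell and more cells of a type cannot be told apart. The log2 ratios of the same-numbered pairs were 1.19, 1.14 and 0.61.

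The Snai1 call rested on all 6 libraries. Whichever culture was left out, the log2 fold change stayed between 0.82 and 1.07, but the adjusted p-value from edgeR was 0.0659 to 0.147 and no such fit passed. With the block Snai1 passed more clearly in edgeR (adjusted p = 0.00522), also without replicate 2 (edgeR adjusted p = 0.0203). In DESeq2 it passed less clearly with the block (adjusted p = 0.0305) than without it (adjusted p = 0.0124). Only 29 to 39 reads in CTL and 63 to 80 reads in TGF-β1 libraries covered Snai1. The exact 95% Poisson interval of the lowest library ran from 19.4 to 41.65 reads and that of the highest from 63.4 to 99.6 reads. Intervals of other libraries overlapped across the groups, for example 27.7 to 53.3 reads in CTL replicate 2 and 48.4 to 80.6 reads in TGF-β1 replicate 1. These intervals cover counting error only.

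Snai2 encodes Slug, the close relative of Snail, and lies on chromosome 16 from 14705852 to 14709385 on the plus strand. Its normalized counts were 419, 760.5 and 299.9 in CTL and 269, 556 and 276 in TGF-β1–treated RTECs, in the order of the replicate numbers. Both groups were led by replicate 2, and their ranges overlapped. Without the block the log2 fold change was -0.43 (SE 0.44, edgeR adjusted p = 0.575), and without CTL replicate 2 its sign turned, to 0.03. Within the pairs the log2 ratio was -0.64, -0.45 and -0.12, and with the block Snai2 fell by 0.41 on the log2 scale (adjusted p = 0.0161 from edgeR). With the block, 34.2% of all genes tested passed, 15.1% higher and 19.1% lower, against 2 and 4 of the 9 members.

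The balance of both Snail genes was also read within each library, where it needs no scaling between libraries. There were 0.0668, 0.0493 and 0.131 Snai1 reads per Snai2 read in CTL replicates 1, 2 and 3. The same ratio was 0.238, 0.149 and 0.218 after TGF-β1, so the groups did not overlap. Its log2 value rose from -3.73 ± 0.72 to -2.34 ± 0.36 (SD, n = 3), a difference of 1.39 (two-sided exact permutation test, p = 0.1, the lowest value possible with 3 against 3). Per kb of exon, the Snai2 level remained above that of Snai1 in both group means, with log2 ratios of -3.41 before and -2.02 after treatment. Snai3, the remaining Snail gene, was scarce in all cultures, with at most 0.861 CPM and a log2 fold change of -0.11 (adjusted p = 0.888 from edgeR).

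**Figure D1:**
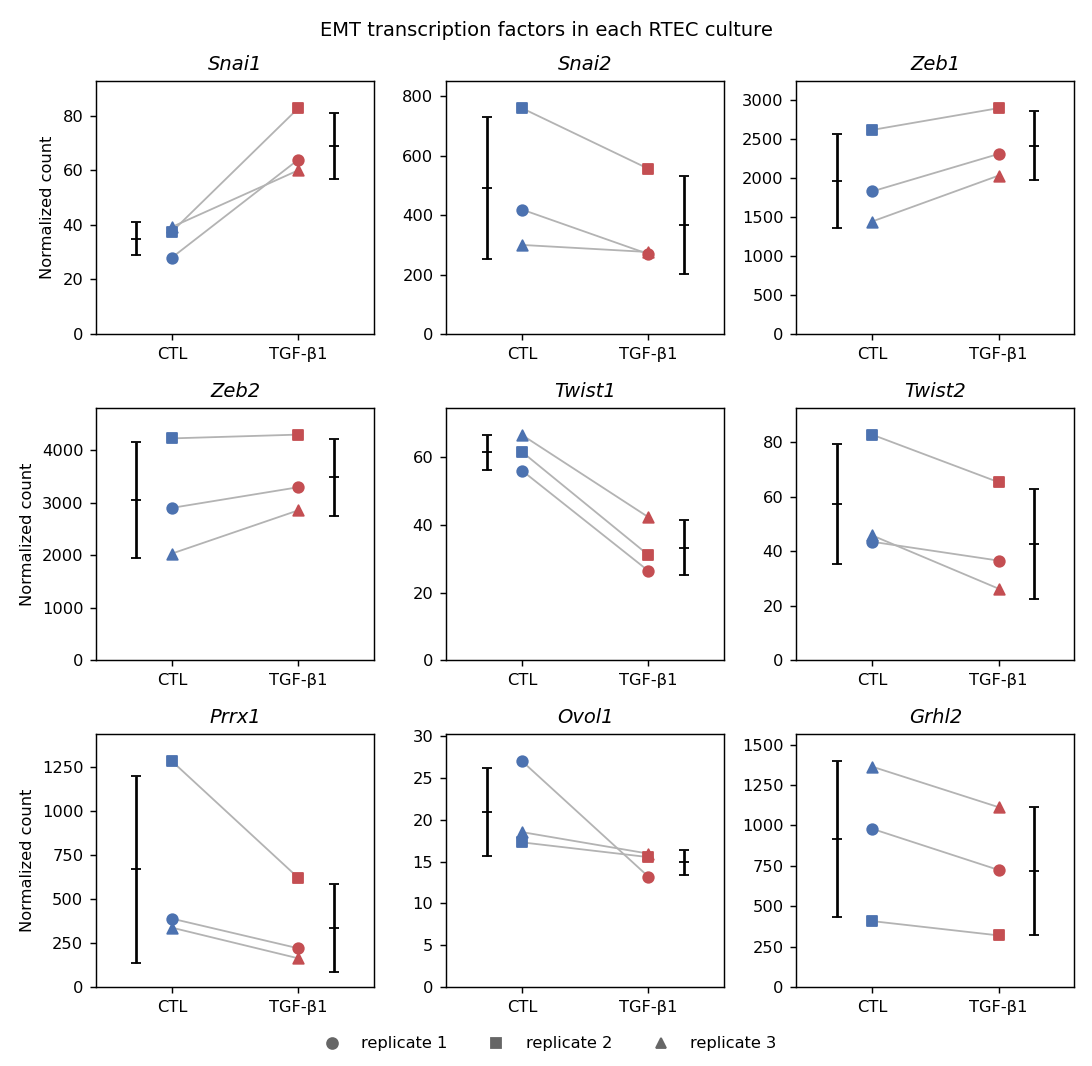
Normalized counts (linear axes from 0) of the 9 EMT transcription factors in each CTL (blue) and TGF-β1–treated (red) RTEC culture. Grey lines join cultures with the same replicate number, whose symbols are given under the panels, and black bars show the group mean ± SD (n = 3). Snai1 lies higher and Twist1 and Ovol1 lower without overlap, and all 3 lines of each panel slope one way.

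Zeb1 and Zeb2 encode large zinc-finger and homeodomain repressors that act on Cdh1 and are restrained by the miR-200 family. Zeb1 lies on chromosome 18 from 5591860 to 5775467 on the plus strand, and Zeb2 on chromosome 2 from 44983632 to 45117395 on the minus strand. Normalized Zeb1 counts were 1829, 2618 and 1443 in CTL and 2310, 2898 and 2032 in TGF-β1–treated RTECs. The groups overlapped because CTL replicate 2 exceeded 2 of the treated cultures, while each treated culture exceeded its own control. Without the block Zeb1 had a log2 fold change of 0.30 (SE 0.24, edgeR adjusted p = 0.476). With the block it rose by 0.32 (SE 0.07, edgeR adjusted p = 0.00762).

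Normalized Zeb2 counts were 2900, 4221 and 2031 in CTL and 3293, 4293 and 2854 after TGF-β1. The pair of replicate 2 was nearly level, with a log2 ratio of 0.02, and the other pairs gave 0.18 and 0.49. Neither fit of all 6 cultures called Zeb2, at a log2 fold change of 0.19 without the block (adjusted p = 0.716 from edgeR) and 0.23 with it (adjusted p = 0.0817 from edgeR). Without replicate 2 and with the block the value was 0.33 (adjusted p = 0.00782 from edgeR), and without CTL replicate 3 and with no block the sign turned, to -0.03. There were 0.631, 0.620 and 0.710 Zeb1 reads per Zeb2 read in CTL and 0.701, 0.675 and 0.712 after TGF-β1, ranges that overlapped.

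Twist1 and Twist2 encode basic helix-loop-helix factors that pair with E proteins. Twist1 lies on chromosome 12 from 33957671 to 33959829 on the plus strand. Its normalized counts were 56.0, 61.5 and 66.5 in CTL and 26.4, 31.1 and 42.25 in TGF-β1–treated RTECs. Every treated culture lay below every CTL culture, with means of 61.35 ± 5.25 and 33.2 ± 8.14 (SD, n = 3). The groups of 18.0% of all genes did not overlap with TGF-β1 lower.

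The Twist1 log2 fold change was -0.88 (standard error 0.22), and its adjusted p-value of 0.0515 (edgeR) narrowly missed the threshold. Several other settings put it past the threshold, and others did not. Leaving out any single culture other than TGF-β1 replicate 3 gave adjusted p-values of 0.106 to 0.150 (edgeR). RLE scaling gave an adjusted p = 0.0520, and no filter beyond 1 count gave 0.0587 (both edgeR). The settings that passed are listed next. Those were library size scaling (adjusted p = 0.0426, edgeR), limma-voom (adjusted p = 0.0465), DESeq2 (adjusted p = 0.0341), the filter of at least 10 counts per library (adjusted p = 0.0477, edgeR) and the fit without TGF-β1 replicate 3 (adjusted p = 0.0466, edgeR). With the replicate block Twist1 fell by 0.89 (adjusted p = 0.00699 from edgeR), whereas DESeq2 with the block gave 0.0644. Its libraries held 58 to 64 reads in CTL and 26 to 45 reads after TGF-β1.

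Snai1 and Twist1 exchanged places within the libraries, a comparison chosen after their values were seen. CTL replicates 1, 2 and 3 held 0.5, 0.609 and 0.590 Snai1 reads per Twist1 read, and the treated cultures held 2.42, 2.67 and 1.42. Per kb of exon, too, Twist1 led in all 3 CTL cultures and Snai1 in all 3 treated cultures. The log2 ratio differed by 1.89 between the groups, which is given as a description.

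Twist2 lies on chromosome 1 from 91801461 to 91848028 on the plus strand. Its normalized counts were 43.5, 82.7 and 45.8 in CTL and 36.6, 65.3 and 26.3 after TGF-β1. The groups overlapped, and replicate 2 was highest in both. The log2 fold change of -0.43 did not pass without the block (adjusted p = 0.549 from edgeR) or with it (-0.44, adjusted p = 0.105 from edgeR). An antisense gene, Gm29100, shares 46.5% of the exon bases of Twist2 and had 0 to 8 reads per library, and the sources used here do not state whether counting used the strand, so the Twist2 values are uncertain.

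Prrx1 encodes a homeodomain factor of mesenchymal cells and lies on chromosome 1 from 163245119 to 163313710 on the minus strand. Normalized Prrx1 counts were 388, 1283 and 337 in CTL and 219, 619 and 162 in TGF-β1–treated RTECs. Replicate 2 held 3.54 times the mean of replicates 1 and 3 in CTL and 3.25 times in TGF-β1–treated RTECs. Among all genes tested, 6.12% in CTL and 6.36% after TGF-β1 differed over 2-fold in either direction in this way.

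The Prrx1 pairs were close to each other, with log2 ratios of -0.82, -1.05 and -1.05. Without the block the log2 fold change was -1.01, with a wide SE of 0.72 (edgeR adjusted p = 0.416). With the block Prrx1 fell by 0.98 (SE 0.08, edgeR adjusted p = 8.3e-05). Without the replicate 2 cultures it passed also with no block, at a log2 fold change of -0.93 (adjusted p = 0.0217 from edgeR).

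Ovol1 and Grhl2 belong to the epithelial side. Ovol1 encodes a zinc-finger repressor that opposes Zeb1 and lies on chromosome 19 from 5549136 to 5560646 on the minus strand. Normalized Ovol1 counts were 27.0, 17.3 and 18.5 in CTL and 13.2, 15.5 and 15.96 after TGF-β1. The treated cultures lay below all CTL cultures, by a narrow gap. The log2 fold change of -0.49 passed neither without the block (adjusted p = 0.277 from edgeR) nor with it (adjusted p = 0.231 from edgeR). Ovol1 had 13 to 28 reads per library. The exact 95% Poisson interval of the lowest library ran from 6.92 to 22.2 reads.

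Grhl2 encodes a Grainyhead-like activator of junction genes, among them Cdh1, and lies on chromosome 15 from 37233036 to 37363569 on the plus strand. Its normalized counts were 979, 408 and 1364 in CTL and 724, 319 and 1113 after TGF-β1. The order of the replicates was the reverse of that of Prrx1 and Zeb1, with replicate 2 at 0.348 times the mean of the others in CTL and 0.347 times after TGF-β1. Each treated culture lay below its own control, by log2 ratios of -0.44, -0.35 and -0.29. The log2 fold change was -0.35 without the block (SE 0.57, edgeR adjusted p = 0.739) and turned to 0.05 without CTL replicate 3. With the block Grhl2 fell by 0.36 (SE 0.06, edgeR adjusted p = 0.00268).

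Replicate 2 thus held more Prrx1, Snai2, Twist2, Zeb1, Zeb2 and Snai1 and less Grhl2 than the mean of replicates 1 and 3 in both groups, while Twist1 was at 1.00 and 0.905 times that mean. Snai2 was at 2.12 and 2.04 times, Snai1 at 1.115 and 1.34 times and Zeb1 at 1.6 and 1.34 times in CTL and TGF-β1–treated RTECs. When replicate 2 was left out of both groups and the block was kept, Snai1, Zeb1 and Zeb2 were higher and Snai2, Twist1, Prrx1 and Grhl2 were lower past the threshold. That fit called 31.4% of all genes, 14.3% higher and 17.0% lower. The part of the Y-linked, epithelial and fibroblast transcripts of replicate 2 in these differences was not tested.

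**Figure D2:**
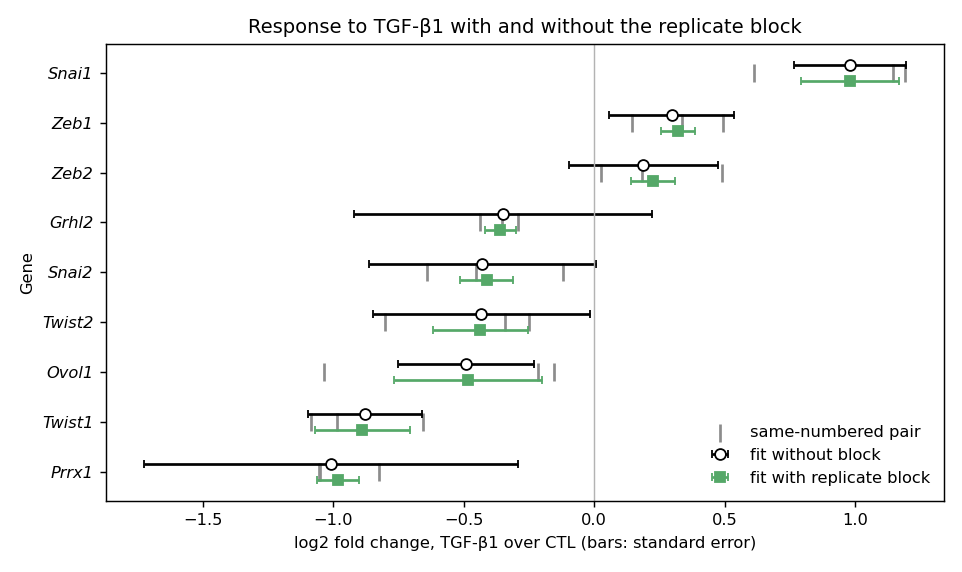
Log2 fold change of each EMT transcription factor, TGF-β1–treated over CTL RTECs, with its standard error as a horizontal bar. Open circles are the fit without the replicate block, green squares the fit with it, and grey ticks the 3 same-numbered pairs. The bars of Prrx1, Grhl2 and Snai2 shrink with the block while the estimates hardly move, and those of Ovol1 and Snai1 stay of similar size.

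Levels of all 9 members were set side by side per kb of exon, as RPKM, which is TMM-scaled CPM divided by the exon length in kb. This length joins all annotated exons of a gene, and the order of the members depends on it. By mean CPM alone, Snai2 ranked 5 in CTL and 4 after TGF-β1, and Zeb2 ranked 1 in both groups. In CTL RTECs the order of the mean levels was Snai2, Zeb1, Zeb2, Grhl2, Prrx1, Twist1, Snai1, Twist2 and Ovol1. The highest mean was 7.71 ± 3.74 RPKM for Snai2 and the lowest 0.190 ± 0.048 RPKM for Ovol1 (SD, n = 3). Only 2 neighbouring pairs in this order did not overlap, Twist1 above Snai1 and Twist2 above Ovol1.

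After TGF-β1 the order of the mean levels was Zeb1, Snai2, Zeb2, Grhl2, Snai1, Prrx1, Twist1, Twist2 and Ovol1. Zeb1 led at 7.42 ± 1.36 RPKM, and Ovol1 was again last at 0.135 ± 0.0134 RPKM (SD, n = 3). The mean Snai1 level was 0.680 RPKM in CTL, the seventh of the 9, and 1.34 RPKM after TGF-β1, the fifth. Zeb2 above Grhl2 and Twist2 above Ovol1 were the neighbours that did not overlap. The ranges of the other neighbours, those of Snai1 included, overlapped across cultures. Within libraries and per kb, Snai2 was above Zeb1 in all 3 CTL cultures and Zeb1 above Snai2 in all 3 treated cultures. This is given as a description and depends on the exon lengths. In CPM, Zeb1 exceeded Snai2 in every culture, with means of 62.0 against 15.6 in CTL and 76.2 against 11.6 after TGF-β1.

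**Figure D3:**
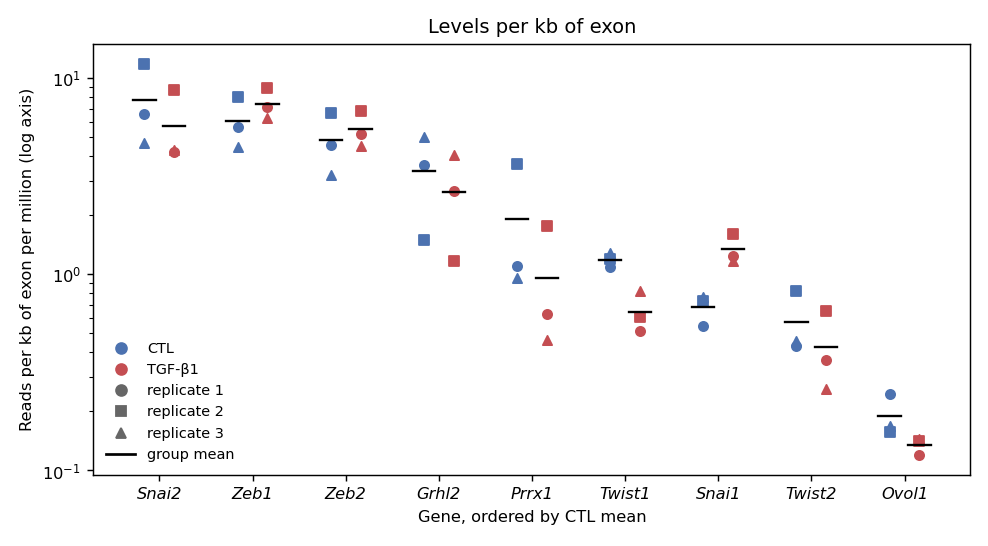
Level of each EMT transcription factor per kb of exon (RPKM), on a log axis, in CTL (blue) and TGF-β1–treated (red) RTECs. Symbols give the replicate number, black lines the group means, and genes follow the CTL order from Snai2 at 7.71 to Ovol1 at 0.190.

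The genes whose profile over the 6 cultures was nearest to that of Snai1 were Irak2, Adgrl3 and Tubb6. Likeness was the root mean square difference of centred log2 CPM, over 10911 genes with a mean of at least 5 CPM. It was 0.09 for Irak2, a kinase of interleukin-1 receptor signaling, 0.11 for Adgrl3, an adhesion receptor, and 0.12 for Tubb6, a tubulin. Tubb6, for example, went from 3551, 3745 and 3793 normalized counts in CTL to 6785, 8434 and 5928 after TGF-β1, with replicate 2 highest among the treated cultures as for Snai1.

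Among 21 other transcription factors linked to EMT, 17 were tested, 1 rose, 1 fell and 15 did not pass without the block. Their median log2 fold change was 0.15, and that of all genes tested was -0.0028. Tcf12, an E protein partner of Twist factors, rose by 0.20 (adjusted p = 0.0382 from edgeR). Foxc1, a forkhead factor, fell by 0.72 on the log2 scale (adjusted p = 0.0202 from edgeR). With the block 8 rose and 2 fell. Over all genes tested, 5.0% were higher and 6.69% lower without the block, and 15.1% and 19.1% with it.

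Of 17 regulators of the epithelial state besides Ovol1 and Grhl2, 13 were tested and 2 fell, with a median log2 fold change of -0.63. Both were Krüppel-like factors. Klf5 went from 691.5, 590.3 and 668 normalized counts to 331, 249.6 and 417, a log2 fold change of -0.97 (adjusted p = 0.0272 from edgeR). Klf4 fell by 0.45 (adjusted p = 0.0499 from edgeR), just inside the threshold. Ovol2, the relative of Ovol1, had a log2 fold change of -0.63 that did not pass (adjusted p = 0.642 from edgeR), and Esrp1, an epithelial splicing regulator, had -0.12 (adjusted p = 0.930 from edgeR). Grhl3, the relative of Grhl2, which was named after its values were seen, had the largest difference of the list, a log2 fold change of -2.07 that just missed the threshold (adjusted p = 0.05 from edgeR). It went from 41.5, 16.3 and 34.9 normalized counts to 9.14, 3.11 and 9.39. With the block 8 of the 13 fell and none rose, Grhl3 among those that fell (adjusted p = 0.000869 from edgeR). The share of all genes tested that were lower was 6.69% without the block and 19.1% with it.

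Of 26 epithelial genes that EMT factors are known to lower, all were tested, 2 fell and none rose without the block. The median log2 fold change was -0.45. One of them was Llgl2, a basolateral polarity gene, which fell by 1.10 (adjusted p = 0.0177 from edgeR). The count that fell without the block lies near the background, as 6.69% of all genes tested were lower. With the block 21 of the 26 fell, against 19.1% of all genes tested.

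Cdh1 itself went from 7288, 2580 and 10730 normalized counts in CTL to 6565, 2376 and 8993 after TGF-β1. Each treated culture lay slightly below its own control, while the spread between replicates was over 3-fold. Its log2 fold change was -0.20 without the block (adjusted p = 0.873 from edgeR), and it fell by 0.18 with the block (adjusted p = 0.0194 from edgeR). Epcam, an epithelial adhesion gene, had -0.13 without the block (adjusted p = 0.930 from edgeR) and fell by 0.15 with it (adjusted p = 0.0376 from edgeR). Crb3, whose promoter window is printed with that of Snai1, had -0.57 without the block (adjusted p = 0.387 from edgeR) and fell by 0.58 with it (adjusted p = 0.000291 from edgeR).

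Of 25 mesenchymal genes that EMT factors are known to raise, 24 were tested, 4 rose and 1 fell, with a median log2 fold change of 0.50. Among those that rose were Tnc, by 1.66 (adjusted p = 0.00121), Itga5, by 1.29 (adjusted p = 0.0429), and Fn1, by 1.04 (adjusted p = 0.00379, all from edgeR). They encode the matrix protein tenascin C, a fibronectin receptor subunit and fibronectin. S100a4 fell by 1.64 (adjusted p = 0.0329 from edgeR), from 30.9, 48.1 and 39.25 normalized counts to 7.11, 16.6 and 14.1. This gene, also called fibroblast-specific protein, thus moved against the name of its list. With the block 19 rose and 3 fell. Over all genes tested, 5.0% were higher and 6.69% lower without the block, and 15.1% and 19.1% with it.

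Vim, the vimentin gene, went from 44990, 69120 and 32100 to 49650, 90320 and 40130 normalized counts, higher in each pair. Its log2 fold change was 0.30 (adjusted p = 0.669 from edgeR), and with the block it rose by 0.28 (adjusted p = 0.00972 from edgeR). Cdh2, the N-cadherin gene, had -0.02 in both fits (adjusted p = 0.903 without and 0.746 with the block, edgeR).

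Of 19 corepressors and partners of the Snail and Zeb proteins, 1 rose and none fell, with a median log2 fold change of 0.04. This was Smarca4, a chromatin remodeling ATPase, at 0.21 (adjusted p = 0.0408 from edgeR). With the block 5 rose and 3 fell. Of all genes tested, 5.0% were higher and 6.69% lower without the block, and 15.1% and 19.1% with it, so these counts lie near the background. Among the 3 was Smad3, which acts with Snail and carries the TGF-β signal, and it went from 11400, 10140 and 13020 to 8461, 7300 and 9432 normalized counts.

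All 16 kinases, ligases and other genes that act on Snail protein stability were tested, and 2 rose and 2 fell, with a median log2 fold change of 0.08. Fbxw7, a ubiquitin ligase subunit, rose by 0.47 (adjusted p = 0.00436 from edgeR), and the kinase gene Pak1 rose by 0.53 (adjusted p = 0.0208 from edgeR). The kinase genes Prkd1 and Lats2 fell by 0.36 and 0.27 (adjusted p = 0.0382 and 0.0347 from edgeR). With the block 5 rose and 4 fell. Over all genes tested, 5.0% were higher and 6.69% lower without the block, and 15.1% and 19.1% with it. Transcript counts do not show the level of the Snail protein.

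**Figure D4:**
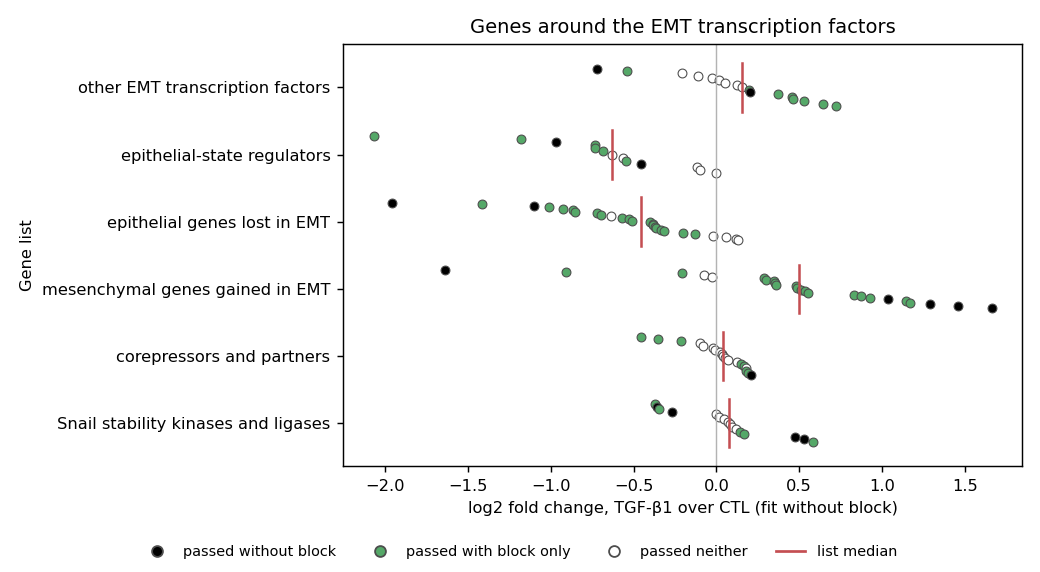
Log2 fold change without the replicate block of every tested gene in 6 lists around the EMT transcription factors, 1 point per gene. Black points passed without the block, green points with the block only and white points in neither fit, and red lines give the list medians, from -0.63 for the epithelial-state regulators to 0.50 for the mesenchymal genes.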

How the data were processed

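Poly(A) mRNA of 3 CTL and 3 TGF-β1–treated RTEC cultures was sequenced as single 50-bp reads. The authors deposited raw read counts per gene for each culture. The submitters' processing notes name Trim Galore, STAR 2.4.1d, HTSeq 0.6.1 and GRCm38. The annotation release and the strand setting are not given in the sources used here. The counting leaves out reads on several genes or places, so overlapping genes can be undercounted. Reads not assigned to 1 gene (25.4 to 25.9% of each file's total) were left out of library sizes. 3 counts correspond to 0.0878 to 0.106 CPM of the library total without TMM scaling, and this floor and the intervals cover counting error only.

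Identifiers were matched to GENCODE M21 with the version dropped (46005 of 46517). Counts were fitted in R 4.3.3 with edgeR 4.0.16 (filterByExpr by group, TMM, glmQLFit with robust estimation, glmQLFTest, two-sided), adjusted by the Benjamini-Hochberg method over 15862 genes at a threshold of 0.05. Standard errors came from the F statistic. Alternatives were DESeq2 1.42.0, voom of limma 3.58.1, other scalings and filters, a threshold of 0.01, leaving out cultures, and the replicate block. No library matched another within sampling noise. The code was tested on simulated data.

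Replicate numbers come from the titles in the labels. Deviations from the group mean correlated at 0.34 to 0.684 between same-numbered and -0.617 to 0.215 between different-numbered cultures. For replicate 1 the gap was small, at 0.34 against 0.215 for CTL replicate 1 with TGF-β1 replicate 3. Centring on the mean of 3 cultures also ties these values to each other, so they cannot settle a pairing. Neither the labels nor the methods of the study state one, and the block assumes it.

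The members and lists were chosen with earlier results of these data known. Named genes were all members, up to 4 genes of each list past the threshold with the largest log2 fold change, 8 genes whatever their values (Cdh1, Cdh2, Vim, Fn1, Epcam, Ovol2, Esrp1, Snai3), and the 3 genes nearest to each member past the threshold. Smad3, Crb3, Grhl3 and genes of the cell type marker lists were named outside this rule, after their values were seen. Some genes that meet this rule are not reported here. Tbxt was not matched to the annotation and counts among the genes not tested. RefSeq promoter sequences of GRCm38.p6 were found for 5 of the 9 members. Figures were drawn with matplotlib 3.10.9.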

Additional observations from a re-analysis of the deposited data

How the results depend on the processing

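Without the block the directions of the members held under all alternatives except that, without 1 culture, Snai2 turned to 0.0281 (without CTL replicate 2), Zeb2 to -0.0331 and Grhl2 to 0.0537 (both without CTL replicate 3). Omitting 1 culture at a time gave 0.82 to 1.07 for Snai1, -0.86 to 0.03 for Snai2, 0.12 to 0.56 for Zeb1, -0.03 to 0.50 for Zeb2, -1.09 to -0.73 for Twist1, -0.88 to -0.07 for Twist2, -0.61 to -0.26 for Ovol1, -1.82 to -0.12 for Prrx1 and -0.82 to 0.05 for Grhl2. Across these fits 109 to 516 genes were higher and 186 to 807 lower, and 0 members were higher and 0 to 1 lower. Omitting both cultures of replicate 1, 2 or 3 gave 0.893, 0.889 and 1.16 for Snai1, none past the threshold. Replicate 1 omitted, 0 genes passed in edgeR, with 1938 at an unadjusted p under 0.05. Replicate 2 omitted, Prrx1 passed at -0.93 as the 1 member lower, and replicate 3 omitted, 95 genes were higher and 190 lower.

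With the replicate block, members past the threshold went from 1 to 2 higher and from 0 to 4 lower, and genes to 2388 higher and 3037 lower. The log2 fold changes that then passed were -0.41 for Snai2, 0.32 for Zeb1, -0.89 for Twist1, -0.98 for Prrx1 and -0.36 for Grhl2. The block changed no other member's call. Combined with the block, and chosen after seeing the data, library size only gave -0.49, 0.25, -0.96, -1.06 and -0.43 for these members (2 higher, 4 lower, and 1519 and 4048 genes). Limma-voom gave -0.42, 0.32, -0.88, -0.995 and -0.36 (2 and 4 members, 2394 and 3045 genes). DESeq2 gave -0.40 for Snai2, 0.33 for Zeb1, -0.98 for Prrx1 and -0.36 for Grhl2 (2 and 3 members, 1584 and 2057 genes). Without replicate 2 and with the block, the values were -0.39, 0.41, -0.84, -0.93 and -0.36, and 0.33 for Zeb2 (3 and 4 members, 2288 and 2718 genes).

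Twist1, without the block, passed at -0.88 with DESeq2, -0.95 with library size only, -0.89 with limma-voom and -0.88 under the filter of 10 counts per library, each giving 1 member lower. Against 793 genes higher and 1061 lower, DESeq2 gave 1201 and 1521 and library size only 508 and 1467. At a threshold of 0.01, 0 members, 127 genes higher and 192 lower passed. Library size only shifted the median of all genes by -0.07. The low counts of Ovol1, Snai1, Twist1 and Twist2 limit their precision, and the cause of the changes between settings was not tested.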

Other observations

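Markers of other kidney cell types were summed in each culture. Summed endothelial markers (11 genes, 5 tested) were 39.0 to 55.4 CPM in CTL and 24.85 to 38.15 CPM in TGF-β1–treated RTECs. Most of that was Flt1, at 35.4 to 49.65 CPM in CTL and 21.9 to 32.6 CPM after TGF-β1. Pecam1 and Cdh5 were under 1 CPM in every culture, and their means were not lower after TGF-β1. No endothelial marker passed without the block, and Cldn5 was at 0 in every culture. With the block 1 of the 5 tested fell, Flt1, by 0.76 (adjusted p = 0.000244 from edgeR), and none rose, against 19.1% of all genes lower and 15.1% higher. Summed leukocyte markers (10 genes, 8 tested) were 9.71 to 22.85 CPM in CTL and 7.59 to 20.3 CPM after TGF-β1. Of these, Csf1r, the receptor of a macrophage growth factor, fell by 1.32 on the log2 scale (adjusted p = 0.0238 from edgeR). Podocyte and mesangial markers (8 genes, 6 tested) summed to 459 to 710.6 CPM in CTL and 367 to 428 CPM after TGF-β1. Most of that was Synpo, and the podocyte gene Nphs1 was under 1 CPM in every culture. All 6 of the tested genes had log2 fold changes below 0, with a median of -0.64. None passed without the block and all 6 fell with it, against 19.1% of all genes tested.

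Of the 13 tubule markers tested, 3 fell without the block. Cdh16, the kidney cadherin gene, fell by 1.504 (adjusted p = 0.00922), Pax8, a nephron transcription factor gene, by 0.77 (adjusted p = 0.00436), and Lrp2, which encodes the endocytic receptor megalin, by 0.93 (adjusted p = 0.0165, all from edgeR). With the block 9 fell. Over all genes tested, 6.69% were lower without the block and 19.1% with it, and 15.1% were higher with it. Of the 11 fibroblast and pericyte markers tested, none passed without the block, and with it 4 rose and 2 fell. Their median log2 fold change with the block was 0.33. Cspg4 rose by 1.05 (adjusted p = 1.877e-05) and Col1a2 rose by 0.73 (adjusted p = 0.01445, both from edgeR with the block). Postn rose by 0.47 (adjusted p = 0.00171) and Col1a1 rose by 0.37 (adjusted p = 0.006285, both from edgeR with the block). The 2 that fell were Pdgfrb, by 0.86 (adjusted p = 0.000431), and Dcn fell by 1.21 (adjusted p = 0.0256, both from edgeR with the block).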
